A study of Mus musculus with 8 samples.

Results

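Heat shock proteins and DnaJ co-chaperones were examined in kidney cortex from SPAK knockout (SPAK KO) mice and wild-type (WT) littermates. SPAK is a kinase, encoded by Stk39, that phosphorylates the salt cotransporters of the distal nephron. The genes were chosen by name: symbols starting with Hspa, Hspb, Hspd, Hspe or Hsph and a digit, with Hsp90, or with Dnaja, Dnajb or Dnajc and a digit. Of the 19938 genes with a probe set annotated to 1 symbol, 70 met this rule. They were 12 Hspa, 8 Hspb, 3 Hspd, Hspe and Hsph, 2 Hsp90, 4 Dnaja, 13 Dnajb and 28 Dnajc genes. Of 72 protein-coding symbols in RefSeq that meet the rule, Hsp90ab1 and Hspa1b were not analysed here. The design text names 4 SPAK KO and 4 WT animals, which were male C57Bl6J mice aged 10 weeks, with water and feed holding 0.32% NaCl and 1% KCl given freely. How Stk39 was disrupted is not given in the labels. The study's stated aim was to find genes that might together limit salt loss when SPAK is missing.

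Chaperones bind unfolded proteins and let them fold. Hsp70 proteins (Hspa genes) do so in cycles of ATP hydrolysis that DnaJ proteins, also called Hsp40 or J-domain proteins, start by bringing the client, while Hsp90 proteins act on clients that are nearly folded and small heat shock proteins (Hspb genes) hold clients without ATP. In the cytosol, heat or other protein damage activates the transcription factor Hsf1, which raises the inducible members. The endoplasmic reticulum (ER) and the mitochondria have Hsp70 proteins of their own, and the ER set is raised by a separate unfolded protein response. In kidney, chaperones are known to respond to ischaemia and to osmotic stress.

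Values were log2 expression values made with RMA, 1 per probe set and array, so differences are on the log2 scale and levels of different genes cannot be set against each other. Stk39 itself had values of 7.21, 6.98, 6.79 and 7.10 on the SPAK KO arrays, against 8.36, 8.51, 8.60 and 8.11 on the WT arrays. Arrays within a group were not equally alike, and whether each array holds the RNA of a separate animal could not be settled from the values. Among 6297 genes with a mean above 8, the 6 pairs of SPAK KO arrays differed by over 0.4 in 1 to 10 genes and WT 2 with WT 3 in 3 genes, but the 5 remaining WT pairs in 119 to 228. WT 2 and WT 3 were therefore taken as 1 sample in each WT mean ± SD (n = 3), and SPAK KO levels have no SD. The p-values of the fit over 8 arrays measure a spread that may in part be technical, so beside the called chaperone genes and Herpud1 a fit is given in which arrays that agree count once (1 SPAK KO and 3 WT samples). In whole cortex, a change in the number of cells of a type and a change of RNA per cell cannot be told apart. The mean over 6 proximal tubule markers was 12.24 to 12.26 on the SPAK KO arrays and 12.19 to 12.23 on the WT arrays.

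Few of the 70 genes differed between the genotypes. A gene was called when its limma p, adjusted by Benjamini-Hochberg over all genes, was under 0.05. Dnajb4 and Hspb8 rose (1.39% of all genes did) and Hsp90aa1 fell (0.682% of all genes did) in SPAK KO, and the remaining 67 genes did not pass. That is 4.29% of the 70 genes, against 2.08% of all genes tested, and the 3 calls were too few to set these genes apart. The median difference was −0.004, against −0.013 over all genes, and centring arrays on their medians turned both positive, to 0.055 and 0.046. In 44 of the 70 genes the difference was smaller than 0.1, as it was in 12077 of all genes. The SPAK KO and WT values did not overlap in 8 of the 70 genes (11.4%), against 12.6% of all genes, which is close to the background. In 5 of the 8 the SPAK KO values were the higher ones and in 3 the lower ones, against 6.9% and 5.71% of all genes.

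**Figure D1:**
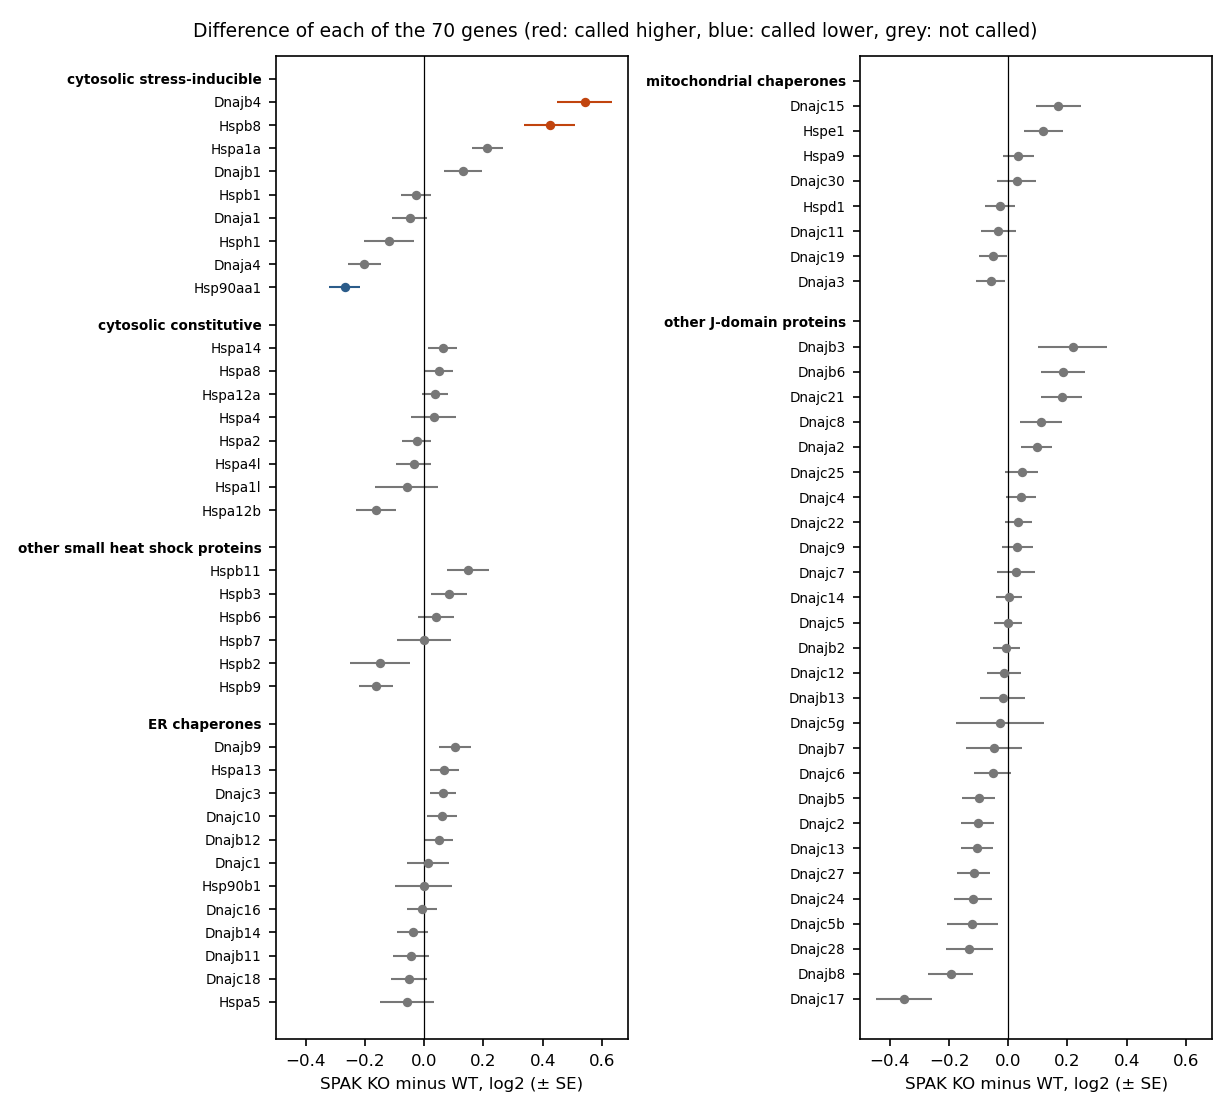
Difference between SPAK KO and WT (log2, horizontal axis) for each of the 70 genes, in groups by compartment, with bars of 1 standard error (SE) from limma over 8 arrays. The called genes Dnajb4, Hspb8 and Hsp90aa1 all stand in the cytosolic stress-inducible group, and the ER genes lie between −0.06 and 0.10. The groups were chosen with earlier results of these data known.

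The promoters of Dnajb4 and Hspb8, the genes that rose, are shown with those of Hsph1 and Hspa5, textbook targets of the cytosolic heat shock response and of the ER unfolded protein response that were not called. The windows run from 250 bases before to 50 after a RefSeq gene start (build GRCm38.p6), read 5′ to 3′ on the gene's strand. Capitals mark an inverted pair of heat shock units (GAANNTTC or TTCNNGAA), a run of 3 such units (GAANNTTCNNGAA or TTCNNGAANNTTC, which holds the pairs too) or an ER stress element (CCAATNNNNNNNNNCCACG or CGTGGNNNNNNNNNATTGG).
Dnajb4, chr3:152193796-152194095, minus strand: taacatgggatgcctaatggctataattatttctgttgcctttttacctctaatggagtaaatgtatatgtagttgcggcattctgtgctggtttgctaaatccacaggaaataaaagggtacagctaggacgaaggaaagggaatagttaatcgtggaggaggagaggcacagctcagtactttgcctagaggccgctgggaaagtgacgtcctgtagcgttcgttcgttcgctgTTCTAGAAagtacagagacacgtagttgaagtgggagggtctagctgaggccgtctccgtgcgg
Hspb8, chr5:116422815-116423114, minus strand: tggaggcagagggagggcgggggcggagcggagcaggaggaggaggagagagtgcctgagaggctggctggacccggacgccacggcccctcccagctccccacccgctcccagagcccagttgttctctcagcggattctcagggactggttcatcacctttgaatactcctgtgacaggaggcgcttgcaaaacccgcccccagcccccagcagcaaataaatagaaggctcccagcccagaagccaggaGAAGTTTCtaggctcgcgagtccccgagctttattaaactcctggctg
Hsph1, chr5:149636287-149636586, minus strand: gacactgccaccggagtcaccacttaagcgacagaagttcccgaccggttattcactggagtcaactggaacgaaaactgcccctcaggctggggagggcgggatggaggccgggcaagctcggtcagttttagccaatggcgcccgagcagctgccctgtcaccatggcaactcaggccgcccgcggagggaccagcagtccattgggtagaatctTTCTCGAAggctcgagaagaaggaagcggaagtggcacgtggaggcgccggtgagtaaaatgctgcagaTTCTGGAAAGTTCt
Hspa5, chr2:34771840-34772139, plus strand: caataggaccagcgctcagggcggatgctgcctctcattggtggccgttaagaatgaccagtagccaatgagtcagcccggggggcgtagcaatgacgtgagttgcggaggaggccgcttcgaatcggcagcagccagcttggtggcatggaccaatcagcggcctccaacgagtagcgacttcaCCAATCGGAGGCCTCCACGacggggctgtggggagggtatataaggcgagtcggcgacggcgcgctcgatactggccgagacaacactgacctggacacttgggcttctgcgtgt

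Each of the Dnajb4 and Hspb8 windows held 1 inverted pair and no run of 3 units. The other Dnajb4 start in RefSeq, at chr3:152210034-152210333, held neither. The Hsph1 window held 3 pairs, of which overlapping ones made up 1 run of 3 units, and the Hspa5 window held 1 ER stress element. RefSeq windows were at hand for 57 of the 70 genes, and the called gene Hsp90aa1 had none. An inverted pair was found in 17 of their 74 windows (23%) and in 15.1% of all 32851 windows. It was in 8 of 14 windows of the cytosolic stress-inducible genes (Dnaja1, Dnaja4, Dnajb4, Hspa1a, Hspb1, Hspb8 and Hsph1) and in 1 of 10 windows of the ER genes (Dnajc10). The run of 3 units was found in 6 of the 74 windows (8.11%), those of Dnajb6, Hspd1, Hspe1 and Hsph1, against 0.603% of all windows. Windows are not independent, since those of 1 gene can overlap, as the 2 of Hsph1 do. The ER stress element was found in 3 of the 74 windows (4.05%), those of Dnajc3, Hsp90b1 and Hspa5, all of the ER, against 0.119% of all windows. A match describes these letters and says nothing of binding. Only exact matches inside these windows were counted, so a gene without a match is not shown to lack such an element. None of the genes with a run of 3 units or an ER stress element was called, where 2.08% of all genes were. With so few genes, the absence of calls does not set them apart, and Hsp90aa1 could not be searched.

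Of 10 cytosolic stress-inducible genes listed, 9 were measured. In this group 2 rose (Dnajb4 and Hspb8), 1 fell (Hsp90aa1) and 6 did not pass, where 2.08% of all genes were called. The list was chosen with earlier results of these data known, so this share carries no test. The differences ran from −0.27 to 0.54 with a median of −0.03, and the median size without regard to sign was 0.20, against 0.08 over all genes. The SPAK KO and WT arrays did not overlap in 5 of the 9, with 3 higher in SPAK KO (Dnajb4, Hspb8 and Hspa1a) and 2 lower (Hsp90aa1 and Dnaja4), against 6.9% and 5.71% of all genes. Differences of both signs therefore stood side by side in this group.

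Dnajb4 encodes a cytosolic Hsp40 protein that stimulates Hsp70. Its log2 values were 9.63, 9.71, 9.70 and 9.73 on SPAK KO arrays 1 to 4, against 8.84, 9.33, 9.22 and 9.21 on WT arrays 1 to 4. All 4 SPAK KO values lay above the highest WT value, and WT 1 was the lowest of the 8. Dnajb4 rose by 0.54 ± 0.09 (SE), or 1.46-fold (limma adjusted p = 0.0169), over a WT level of 9.11 ± 0.23 (SD, n = 3). With agreeing arrays counted once the difference was 0.58, with an unadjusted limma p of 0.0156 and an adjusted p of 1. Leaving out any 1 of the SPAK KO arrays ended the call (adjusted p of 0.0530 to 0.0614), with differences of 0.53 to 0.56.

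Hspb8 encodes a small heat shock protein that works with the co-chaperone Bag3 in the removal of misfolded proteins by autophagy. It read 6.98, 6.61, 6.83 and 6.60 on the SPAK KO arrays, against 6.37, 6.32, 6.24 and 6.39 on the WT arrays. The groups did not overlap, and here the SPAK KO arrays spread more widely than the WT arrays (a range of 0.38 against 0.16). Hspb8 rose by 0.42 ± 0.09 (1.34-fold, limma adjusted p = 0.0350), over a WT level of 6.35 ± 0.06 (SD, n = 3). That level lies near the medians of all probe sets on the WT arrays (6.13 to 6.19), and no detection call is given. With agreeing arrays counted once the difference was 0.41 (unadjusted p = 0.0069, adjusted p = 1 by limma). Averaging WT 2 and WT 3, or leaving out SPAK KO 1, SPAK KO 3, WT 1, WT 2 or WT 3, ended the call. Bag3 had a difference of 0.001 ± 0.051 and did not pass.

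Hsp90aa1 encodes the inducible cytosolic form of Hsp90. It read 10.68, 10.67, 10.66 and 10.73 on the SPAK KO arrays, against 10.88, 10.92, 10.95 and 11.06 on the WT arrays, with no overlap. Hsp90aa1 fell by 0.27 ± 0.05, and the level was 1.21-fold higher in WT (limma adjusted p = 0.0287), where the mean was 10.96 ± 0.09 (SD, n = 3). The array holds 3 probe sets annotated to Hsp90aa1 alone, and they gave −0.27, −0.26 and −0.27. Hsp90 genes have close relatives and processed copies in the genome, so these probe sets may bind the same transcripts and are no independent evidence. The call ended with arrays centred on their medians (−0.21, adjusted p = 0.0672), with WT 2 and WT 3 averaged, and without any 1 of the SPAK KO arrays, WT 2 or WT 3. With agreeing arrays counted once the difference was −0.28 (unadjusted p = 0.0484, adjusted p = 1 by limma).

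**Figure D2:**
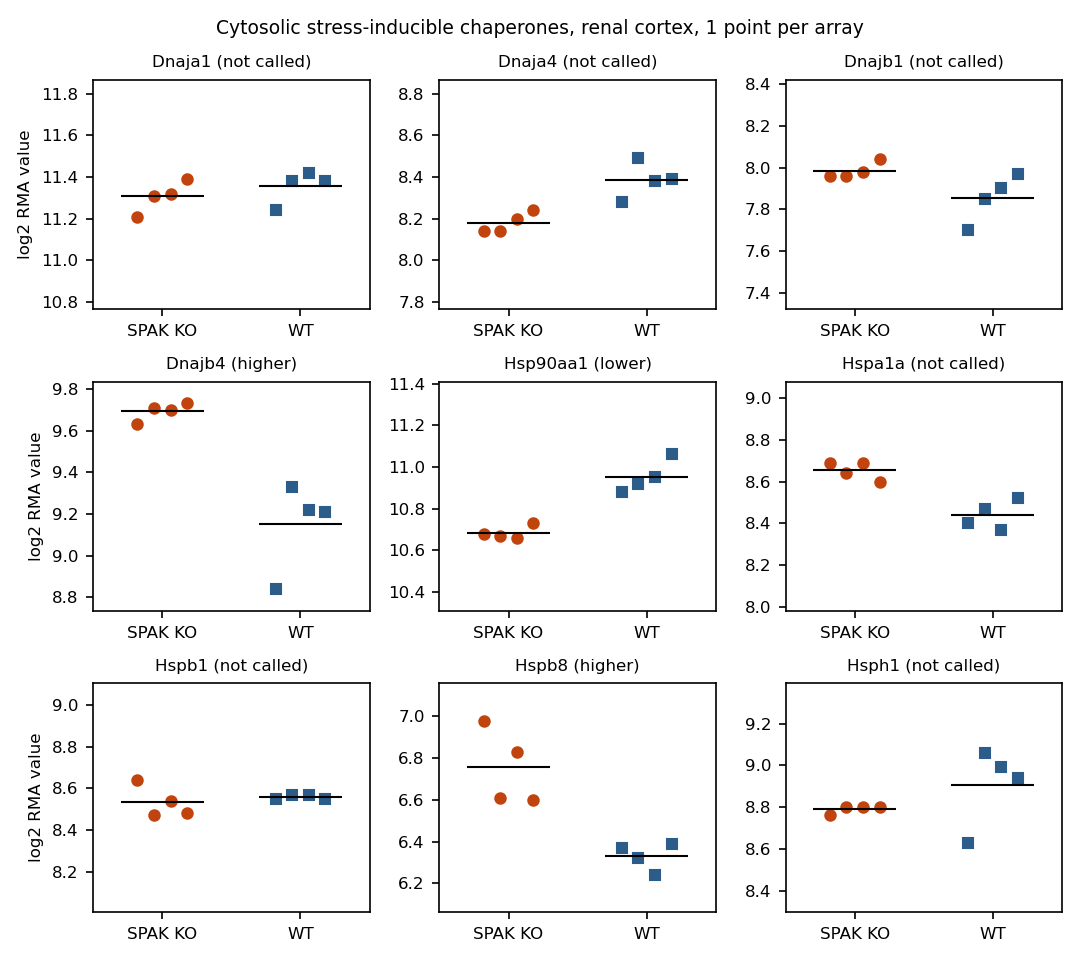
Log2 RMA values of the 9 measured cytosolic stress-inducible genes, 1 point per array in replicate order from left to right, with a line at the mean of the 4 arrays and axes of equal height. Dnajb4 and Hspb8 lie higher and Hsp90aa1 lower on all 4 SPAK KO arrays, while Hspb1 and Dnaja1 overlap.

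Hspa1a encodes the inducible Hsp70 that is used most often as a sign of the heat shock response. Its values were 8.69, 8.64, 8.69 and 8.60 on the SPAK KO arrays, against 8.40, 8.47, 8.37 and 8.52 on the WT arrays. The groups did not overlap, but the difference of 0.21 ± 0.05 did not pass (limma adjusted p = 0.0756). It passed in 5 of 19 alternative settings, among them arrays centred on their medians and the fit without WT 4. Hspa1a and Hspa1b are nearly identical, and a probe set that carries both symbols was not used, so the Hspa1a value may include Hspa1b. Dnaja4, another Hsp40 gene, had a difference of −0.20 ± 0.06 (adjusted p = 0.0999). It read 8.14 to 8.24 on the SPAK KO arrays and 8.28 to 8.49 on the WT arrays.

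The other inducible members overlapped between the genotypes. Dnajb1, the main Hsp40 partner of inducible Hsp70, differed by 0.13 ± 0.06, and Hsph1, an Hsp110 protein that releases nucleotide from Hsp70, by −0.12 ± 0.08. Hsph1 read 8.76 to 8.80 on the SPAK KO arrays but 8.63 to 9.06 on the WT arrays, so WT 1 lay below and the remaining WT arrays above every SPAK KO value. Hspb1, the small heat shock protein known to protect the actin cytoskeleton, differed by −0.03 ± 0.05, and Dnaja1 by −0.05 ± 0.06. Centring arrays on their medians turned both of these positive, at 0.03 and 0.01. A second, dimmer probe set gave 0.00 for Hspb1 and 0.04 for Dnaja1.

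Of 8 cytosolic genes of the constitutive Hsp70, Hsp90 and Hsp110 group, 0 passed in limma. Hspa12b alone had an unadjusted p under 0.05, against 19.1% of all genes. The differences of the 8 genes ran from −0.16 to 0.06 with a median of 0.004. Hspa8, the constitutive Hsc70 that also strips clathrin from vesicles, read 13.14, 13.11, 13.14 and 13.23 on the SPAK KO arrays, against 13.05, 13.12, 13.12 and 13.15 on the WT arrays. The groups overlapped and the difference was 0.05 ± 0.05. Probe sets of Hspa8 may also read processed copies of the gene, and the other 2 gave 0.02 and 0.01. Among the 6 other small heat shock proteins 0 passed in limma, and 1 had an unadjusted p under 0.05. Hspb9, known from testis, was lower on every SPAK KO array (6.15 to 6.29, against 6.34 to 6.48 on the WT arrays) at −0.16 ± 0.06 (limma adjusted p = 0.155). These values lie near the medians of all probe sets on the arrays (6.09 to 6.19).

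ER chaperones showed the narrowest range of differences of the compartments compared, from −0.06 to 0.10, and 0 of 12 genes passed. Their median difference was 0.005, and 0 had an unadjusted p under 0.05, against 19.1% of all genes. Hspa5, the ER Hsp70 known as BiP, read 11.21, 11.27, 11.25 and 11.20 on the SPAK KO arrays, against 11.13, 11.23, 11.19 and 11.60 on the WT arrays. Hsp90b1, the ER Hsp90 known as GRP94, read 11.10, 11.19, 11.15 and 11.23, against 11.03, 11.04, 11.12 and 11.50. In both genes the SPAK KO arrays lay close together inside the WT range, and WT 4 stood above all other arrays. The differences were −0.06 ± 0.09 for Hspa5 and −0.002 ± 0.097 for Hsp90b1, or 0.000 and 0.057 with arrays centred on their medians. Without WT 4 they were 0.05 and 0.11 and did not pass (limma adjusted p = 0.625 and 0.287).

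The ER co-chaperones gave small differences as well. Dnajb9, which is raised by the unfolded protein response and restrains the sensor Ire1, differed by 0.10 ± 0.05, and Dnajc3, which inhibits the kinase of the same response, by 0.06 ± 0.04. In both, the groups did not overlap, though the lowest SPAK KO and highest WT values differed by under 0.05 (10.25 and 10.25 for Dnajb9, 9.54 and 9.54 for Dnajc3). Dnajb11, a partner of BiP, differed by −0.05 ± 0.06, or by 0.014 with centred arrays.

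Mitochondrial chaperones gave 0 limma calls among 8 genes (0 with an unadjusted p under 0.05, against 19.1% of all genes). Their median difference was −0.001, with a range of −0.06 to 0.17. Hspa9, the mitochondrial Hsp70 mortalin, read 11.70 to 11.76 on the SPAK KO arrays and 11.62 to 11.77 on the WT arrays (difference 0.03 ± 0.05). Hspd1 and Hspe1 encode the chamber Hsp60 and its lid Hsp10, and they are transcribed in opposite directions from a shared promoter. They gave −0.03 ± 0.05 and 0.12 ± 0.07, with overlap between the groups in both, and centring turned Hspd1 to 0.029. A second probe set gave −0.11 for Hspd1 and 0.11 for Hspe1, and probe sets of both may also read processed copies. Dnaja3, a partner of mortalin, differed by −0.06 ± 0.05 and Dnajc19, a part of the motor that imports proteins, by −0.05 ± 0.05 (0.008 with centred arrays). Dnajc15, related to Dnajc19, had the largest difference of this group at 0.17 ± 0.08 (adjusted p = 0.264).

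Across compartments, then, calls were made in 3 of 9 cytosolic stress-inducible genes, 0 of 12 ER genes and 0 of 8 mitochondrial genes. With 2.08% of all genes called, 0 calls in lists of 12 and 8 genes do not set the ER and mitochondrial chaperones apart. The median sizes of the differences, without regard to sign, were 0.20, 0.05 and 0.04. The contrast between compartments itself was not tested, and the lists were chosen with earlier results of these data known. The list of inducible genes mixes directions, so its median of −0.03 lies near that of the ER and mitochondrial lists. With arrays centred on their medians the inducible, ER and mitochondrial medians were 0.031, 0.064 and 0.058, so the signs of these small medians depend on the scaling.

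The 27 remaining J-domain proteins gave 0 limma calls (4 had an unadjusted p under 0.05, against 19.1% of all genes). Their median difference was −0.01. Dnajc17, which is linked to splicing, had the largest difference of them. It read 6.94, 6.93, 7.10 and 6.93 on the SPAK KO arrays, against 7.41, 7.54, 7.30 and 7.06 on the WT arrays, with SPAK KO 3 above WT 4. The difference was −0.35 ± 0.09 (limma adjusted p = 0.0912), and −0.44 with an adjusted p of 0.0174 without WT 4. Dnajb3, Dnajb6 and Dnajc21 gave 0.22, 0.18 and 0.18, and Dnajb8 gave −0.19, with adjusted p of 0.203 to 0.342. Dnajb3 had a mean under 6, as had 11 of the 70 genes, and such dim values come with no detection call. Dnajb6 was represented here only by a dim probe set, since 4 others that name it also name Gm4247. Dnajc13, which acts in sorting at endosomes, had 15 probe sets, and the 1 used gave −0.11 ± 0.05 while another, dimmer one gave 0.27 (unadjusted limma p of 0.0826 and 0.0773 in a fit of all probe sets).

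Genes that work with these chaperones but lie outside the naming rule were read from the same fit. Of 24 cytosolic partners measured, 0 passed in limma (3 had an unadjusted p under 0.05, against 19.1% of all genes). Their median difference was 0.03. The 2 with the smallest p were St13, an Hsp70-binding protein, at 0.16 ± 0.05 and Cct7, a subunit of the chaperonin that folds actin and tubulin, at 0.12 ± 0.05 (adjusted p of 0.122 and 0.230). Of 27 genes of ER folding and the unfolded protein response, 1 rose and 0 fell, with a median of 0.000. It was Herpud1, a membrane protein of ER-associated degradation, which read 12.01, 11.87, 11.88 and 11.88 on the SPAK KO arrays, against 11.29, 11.60, 11.69 and 11.51 on the WT arrays. Every SPAK KO value lay above the WT range. Herpud1 rose by 0.39 ± 0.08 (1.31-fold, limma adjusted p = 0.0415), and the call ended without any 1 of the SPAK KO arrays, WT 2 or WT 4, with the replicate number as a block (adjusted p = 0.108), and with agreeing arrays counted once (0.43, unadjusted p = 0.0265, adjusted p = 1). Calr, the lectin chaperone calreticulin, was lower on every SPAK KO array at −0.15 ± 0.05 (adjusted p = 0.146). Textbook targets of the unfolded protein response other than Herpud1 did not pass, such as Ddit3 (−0.05 ± 0.08), Hyou1 (0.000 ± 0.066) and Sdf2l1 (−0.14 ± 0.07). Of 12 mitochondrial partners 0 passed in limma, and 4 had an unadjusted limma p under 0.05, against 19.1% of all genes. Their median difference was 0.06, with 10 differences positive and 2 negative. In 3 of them the SPAK KO values were higher with no overlap and in 1 lower, against 6.9% and 5.71% of all genes. Spg7, a subunit of an inner membrane protease, gave 0.24 ± 0.06 and Pam16, of the import motor, 0.17 ± 0.05 (limma adjusted p of 0.0724 and 0.126).

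**Figure D3:**
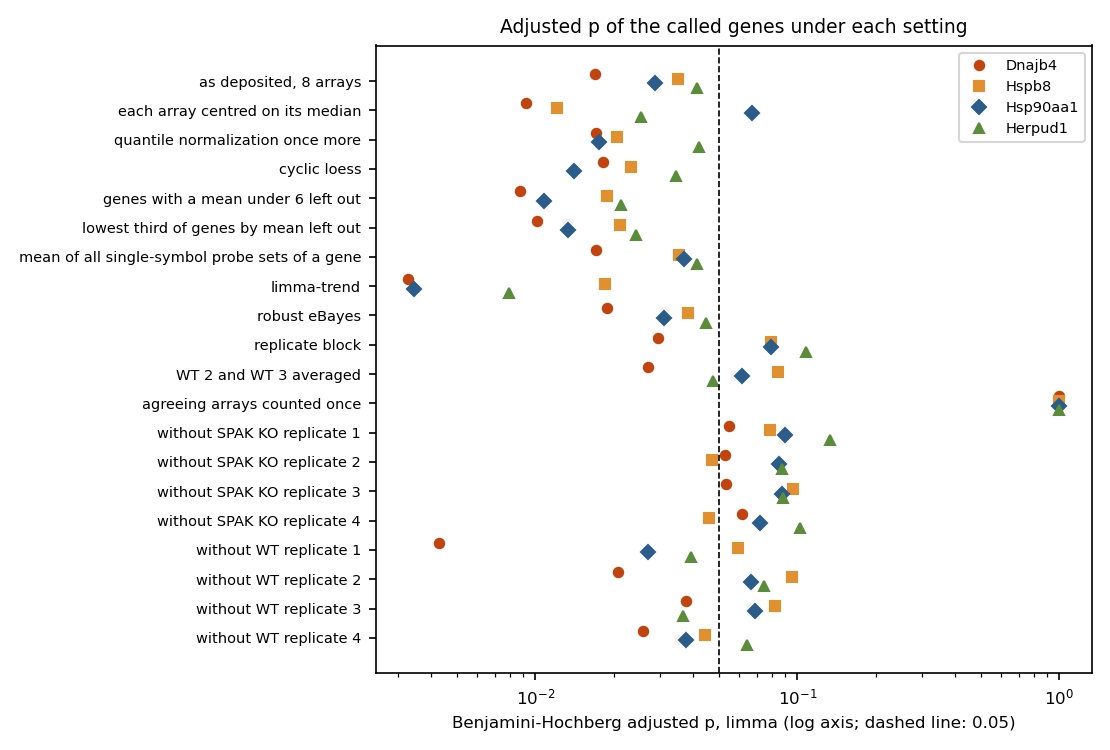
Benjamini-Hochberg adjusted limma p (horizontal log axis) of Dnajb4, Hspb8, Hsp90aa1 and Herpud1 in the fit of 8 arrays as deposited and in each of 19 alternative settings, with a dashed line at 0.05. Dnajb4 stays left of the line in 14 of the 19, Hspb8 and Herpud1 in 11 and Hsp90aa1 in 9.

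Many ER genes stood at an extreme on WT 4 or WT 1. On WT 4, 6 of the 12 ER chaperones had their highest value of the 8 arrays (50%), as had 11 of the 27 other ER genes (40.7%), against 11.4% of all genes. On WT 1, 8 of the 12 ER chaperones (66.7%) had their lowest value, against 18.4% of all genes. Of the 27 other ER genes, 9 were lowest on WT 1, a larger share than the 18.4% of all genes. A further 6 of the 27 were highest on WT 1, close to the background of 22.8% of all genes. Low values on WT 1 were not limited to the ER, since 7 of 12 mitochondrial partners (58.3%) and 10 of 24 cytosolic partners (41.7%) were lowest there. Hsp90b1, Hspa5, Manf and Pdia3, all of ER protein folding, were higher on WT 4 than the mean of the remaining WT arrays by 0.43, 0.42, 0.40 and 0.37. On WT 1, Dnajb4, Hsph1 and Hspa4 lay 0.41, 0.37 and 0.31 below the mean of the remaining WT arrays, while Hspb7, Hspa4l and Hspb6 lay 0.19, 0.17 and 0.15 above it. The median gap of WT 1 was −0.14 for the inducible genes, −0.04 for the constitutive ones and 0.02 for the other small heat shock proteins. The median range over the 4 arrays of an ER chaperone was 0.08 in SPAK KO and 0.17 in WT, as is the case for all genes in the same direction (0.17 and 0.22). These counts were chosen after the values were seen and carry no test.

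**Figure D4:**
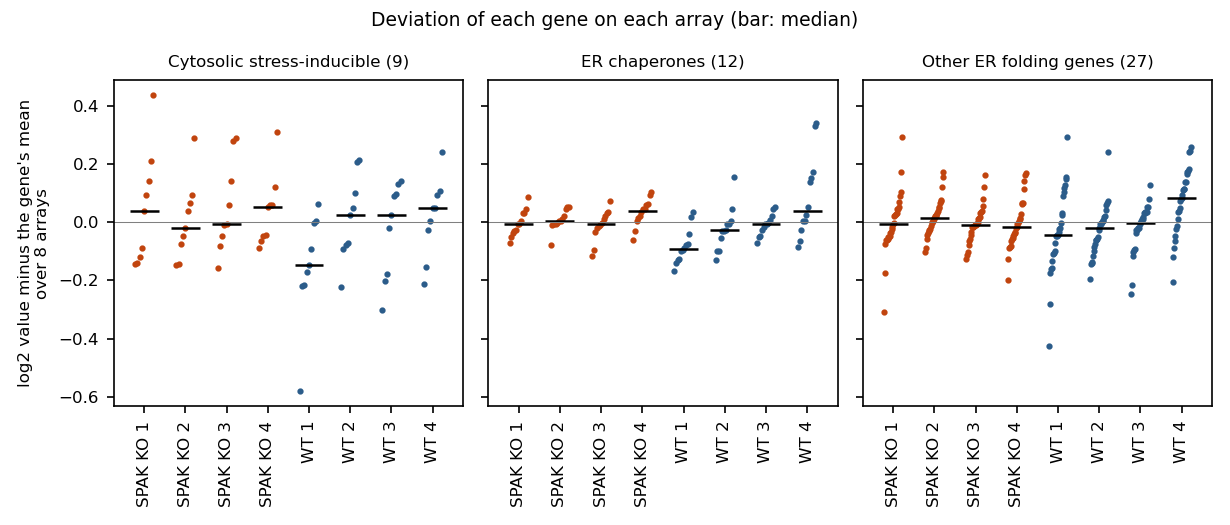
Deviation of each gene from its own mean over the 8 arrays (log2, vertical axis) on every array, for the cytosolic stress-inducible, ER chaperone and other ER folding genes, with a bar at the median. The ER chaperones sit lowest on WT 1 (median −0.091), and Hsp90b1 and Hspa5 are the 2 highest points on WT 4.

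Other gene groups moved with the genotype on the same arrays. Over all genes, 1.39% were called higher and 0.682% lower, and 6.9% were higher with no overlap. Of 10 immediate early genes, which respond within minutes to growth factors, stress or handling of tissue, 7 rose (Fos, Jun, Junb, Egr1, Ier3, Dusp1 and Zfp36) and 0 fell, and the mean over the list was 7.97 to 8.05 on the SPAK KO arrays against 7.41 to 7.57 on the WT arrays. The part of this shift in the Dnajb4, Hspb8, Hspa1a and Herpud1 differences was not tested. Tubule markers moved too: 2 of 4 genes of the distal convoluted tubule fell (Pvalb and Trpm6, with a list mean of 9.62 to 9.66 on the SPAK KO arrays against 10.12 to 10.29 on the WT arrays), and of 5 collecting duct genes 3 rose (Scnn1b, Atp6v1b1 and Slc26a4) and 1 fell (Aqp2), at 10.03 to 10.09 against 9.70 to 9.88. All 4 genes of the thick ascending limb were higher with no overlap (11.25 to 11.31 against 11.04 to 11.10), and 1 of them, Cldn16, was called. Aqp1 rose among the 6 proximal tubule genes, and of 3 podocyte genes 0 were called (8.39 to 8.52 against 8.31 to 8.37). Smooth muscle, where Hspb8 is also expressed, was represented by 6 markers with 0 calls and a median difference of 0.055. Their mean was 6.94 to 7.03 on the SPAK KO arrays and 6.89 to 6.97 on the WT arrays. Differences were positive in 4 of them and negative in 2. Des (0.27, no overlap) and Myh11 (0.15, overlap) had an unadjusted limma p under 0.05, as had 19.1% of all genes. The 5 skeletal muscle markers had 0 calls and a mean of 5.66 to 5.86 against 5.78 to 5.93. Of 6 endothelial markers 0 were called (8.94 to 9.04 against 8.93 to 9.02), of 4 perirenal fat markers 1 rose (Retn, with a list mean of 6.35 to 6.46 against 6.10 to 6.33), and of 5 immune markers 1 fell (Cd3e, 6.82 to 6.92 against 6.84 to 6.91). The part of these lists in the chaperone values was not tested. With agreeing arrays counted once 0 of the 17 marker genes called here passed (limma adjusted p of 0.751 to 1), with unadjusted p of 0.000161 to 0.0696.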

How the data were processed

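Renal cortex RNA was measured on 8 Affymetrix 1-colour arrays, labelled as 4 SPAK KO and 4 WT samples. Each deposited value is the log2 expression of 1 probe set on 1 array. The submitters' processing notes name RMA and Affymetrix Expression Console for the authors' step from scans to these values. Software version, genome build and any filter are not given in the sources used here. Precision is limited by the number of arrays and of separate RNA samples, and the values come with no detection call.

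Probe sets were named from GEO's platform annotation: 21789 of 35556 had exactly 1 symbol, 1621 several and 12146 none. The probe set with the highest mean stood for each of 19938 genes. Genotype was fitted with limma 3.58.1 (lmFit and eBayes) in R 4.3.3 over all 8 arrays, and p-values were adjusted by Benjamini-Hochberg over all genes. The script was tested on simulated data with independent noise on each array. Arrays that agree closely were not simulated, so that test does not bear on the p-values given here. Genes were named by rule: Stk39, all called members, the 10 largest differences, 19 defining members of the compartments (Hsp90ab1 and Hspa1b had no usable probe set), called genes and the 2 smallest p of each partner list, and members whose probe sets differ in sign by over 0.3. Genes outside this rule, such as Bag3 and Manf, were picked with their values in view. The members and lists were chosen with earlier results of these data known.

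Replicate numbers are shared by the genotypes, but the deviations of same-numbered arrays correlated at −0.050, 0.082, −0.129 and 0.133, so numbers were not taken as pairs. Alternatives were centring, quantile and cyclic loess normalization, filters on dim genes, the mean of all probe sets, limma-trend, robust eBayes (statmod 1.5.0), a replicate block, agreeing arrays averaged, and each array left out. Promoter windows came from RefSeq.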

Additional observations from a re-analysis of the deposited data

Results flagged for a closer look

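A value was marked where, in 1 genotype's 4 arrays, the gap between the highest or lowest array and its nearest neighbour took up a larger part of the range than Dixon's critical value for 4 samples. Of 154 groups of 4 arrays from 77 genes, 11 were marked, and chance alone marks about 1 group in 20. Among SPAK KO arrays, Dnajc17 read 7.10 on SPAK KO 3 against 6.93 to 6.94 on the others, Dnajb5 6.54 on SPAK KO 3 against 6.68 to 6.70, Hspa12a 8.41 on SPAK KO 4 against 8.46 to 8.47, and Hsph1 8.76 on SPAK KO 1 against 8.80. Outside the chaperones, Herpud1 read 12.01 on SPAK KO 1 against 11.87 to 11.88, and Calr 11.66 on SPAK KO 4 against 11.72 to 11.73. Among WT arrays, Dnajb9 read 10.09 on WT 1 against 10.23 to 10.25, Dnajb5 6.66 on WT 2 against 6.78 to 6.79, St13 9.93 on WT 3 against 9.88 to 9.89, Dnajc2 7.54 on WT 4 against 7.69 to 7.71, and Dnajc9 7.29 on WT 4 against 7.39 to 7.41. All 11 gaps are under 0.2 on the log2 scale, and the 3 called chaperone genes are not among them.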

How the results depend on the processing

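Over all genes 414 were called. The count was 761 with arrays centred on their medians, 664 without genes of a mean under 6, 764 with limma-trend, 174 with the replicate block, 253 with WT 2 and WT 3 averaged, 0 with agreeing arrays counted once (618 at an unadjusted limma p under 0.05), and 156 to 625 when 1 array was left out. Centring changed the split of all calls to 673 higher and 88 lower, where it was 278 and 136. Among the 70 chaperone genes, 2 higher calls became 1 with the replicate block, 1 with WT 2 and WT 3 averaged, 0 with agreeing arrays counted once, and 0 to 3 with 1 array left out. The 1 lower call became 0 with centring, with the block, with WT 2 and WT 3 averaged and with agreeing arrays counted once, and 0 to 2 with 1 array left out. Without SPAK KO 1 or SPAK KO 3, limma called 0 of the 70, and without WT 4 it called 5. Under the block Dnajb4 passed, and Hspb8 and Hsp90aa1 did not (adjusted p = 0.0796 and 0.0795). Of 624 comparisons of 33 named genes with an alternative, 568 kept direction and side of the threshold, 32 lost a call, 12 gained 1 and 12 turned direction, the last all among genes that did not pass. Of 190 list medians under an alternative, 17 moved by more than the SD of that median over the WT samples (n = 3). Centring turned Hspb1 (0.031), Dnaja1 (0.01), Hspa5 (0.000), Hsp90b1 (0.057), Dnajb11 (0.014), Hspd1 (0.029) and Dnajc19 (0.008) positive. Leaving out 1 array turned Hsp90b1 (−0.048 to 0.107), Hspa5 (−0.111 to 0.046) and Dnajb11 (−0.086 to 0.006). The cause of these changes was not tested, beyond the fewer samples of the last settings. No detection call is given, so a dim gene such as Dnajb3 has no stated floor.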
